A study of Mus musculus with 33 samples.

Results

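Expression of 10 genes of the endothelial lineage, which builds the inner wall of blood vessels, was followed by RNA-seq of mouse embryonic stem cells on their way to tendon and fibrocartilage cells. They were taken by symbol from the deposited count table, which held all 10 of them among 17120 genes. They were chosen with an early highest level in these data known, so that an early peak is a description and not a finding. The transcription factors were Etv2, Tal1 and Erg. The receptors were Kdr and Flt1, which bind vascular endothelial growth factors (VEGF), and Tek and Tie1, the receptors of the angiopoietin system. The surface and junction proteins were Cdh5 (VE-cadherin), Pecam1 and Emcn (endomucin).

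Endothelial and blood cells arise from mesoderm in which the ETS factor Etv2 is switched on for a short time. Etv2 acts with Tal1 and activates genes such as Kdr, Tek and Cdh5, after which other ETS factors, Erg among them, keep the programme running. VEGF signalling through Kdr drives the growth of endothelial cells, and Flt1 binds the same ligand with high affinity while signalling weakly.

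The cultures came from mESC lines of ScxGFP reporter mice. All groups had been passed through embryoid bodies with the BMP inhibitor LDN-193189 and through the Wnt agonist CHIR with LDN-193189 to paraxial mesoderm (PM), the group collected at D6. In the scheme of the ligand experiments AGN was also in the medium before D6, and the labels do not say whether this held for these libraries. From D6 both conditions received TGFβ1, the hedgehog agonist SAG and FGF2. The conditions differed in 1 ligand. CD1530 activates the gamma form of the retinoic acid receptor and directs cells to tendon, while AGN 193109 (AGN) acts on these receptors as an inverse agonist and directs cells to fibrocartilage. Both were collected after 6 h (D6.25), 18 h (D6.75), 1.5 days (D7.5), 2.5 days (D8.5) and 4 days (D10). With PM this made 11 groups of 3 biological replicates, 33 libraries in all. The labels do not tie a replicate to a cell line. The p-values measure the spread between replicate samples, estimated in 1 fit over all 11 groups. The labels give PM as embryoid bodies and all later groups as plated monolayers, so that plating and the change of medium cannot be told apart from the first hours of induction. Whole cultures were sequenced with no sort, so that fewer cells of a type and less RNA per cell cannot be told apart.

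Total counts were between 17.1 M and 22.8 M per library, with 38.1 M in AGN at D8.5 replicate 1. Levels are given as CPM, counts relative to the library total after scaling by the TMM method, as mean ± SD of 3 libraries. A gene was called where the adjusted p of edgeR's quasi-likelihood test, fitted on all genes, was under 0.05. Retinoic acid receptor targets differed between the conditions: Cyp26a1, which breaks down retinoic acid, was higher in CD1530 by 0.85 ± 0.05 at D6.25 (log2 fold change ± SE) and by 6.11 ± 0.08 at D10, and Dhrs3 by 1.04 ± 0.10 and 4.94 ± 0.07. Stra8 differed by 1.92 ± 0.74 at D6.25, which did not pass the test, and was higher by 4.63 ± 0.23 at D6.75.

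Of the 10 genes, 8 have a promoter window in RefSeq, in 11 windows on GRCm38.p6. Of these windows 4 are shown, each of 250 bases ending at the start site, for the earliest factor (Etv2), for both VEGF receptors, whose levels parted between the conditions, and for Emcn, which differed most between the conditions at D6.75. Capitals mark the letters GGAA or, on the other strand, TTCC, the core that ETS factors recognise. The windows lie at chr7:30635853-30636102 (minus strand, Etv2), chr5:75978456-75978705 (minus, Kdr), chr5:147726012-147726261 (minus, Flt1) and chr3:137340828-137341077 (plus, Emcn).
Etv2: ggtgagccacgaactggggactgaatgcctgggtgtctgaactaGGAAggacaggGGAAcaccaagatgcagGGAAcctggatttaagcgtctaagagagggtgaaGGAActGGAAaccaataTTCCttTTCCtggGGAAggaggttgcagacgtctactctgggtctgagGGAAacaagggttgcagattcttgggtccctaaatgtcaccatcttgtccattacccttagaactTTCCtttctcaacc
Kdr: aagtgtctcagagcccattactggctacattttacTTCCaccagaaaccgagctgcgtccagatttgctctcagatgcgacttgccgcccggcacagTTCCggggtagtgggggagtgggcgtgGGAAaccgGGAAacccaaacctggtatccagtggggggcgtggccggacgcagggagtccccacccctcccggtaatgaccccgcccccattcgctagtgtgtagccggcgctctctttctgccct
Flt1: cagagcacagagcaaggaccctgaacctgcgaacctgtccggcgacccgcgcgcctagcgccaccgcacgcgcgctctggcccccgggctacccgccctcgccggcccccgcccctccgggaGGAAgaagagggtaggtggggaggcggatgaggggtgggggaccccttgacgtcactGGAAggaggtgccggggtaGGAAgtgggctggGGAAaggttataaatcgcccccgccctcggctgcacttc
Emcn: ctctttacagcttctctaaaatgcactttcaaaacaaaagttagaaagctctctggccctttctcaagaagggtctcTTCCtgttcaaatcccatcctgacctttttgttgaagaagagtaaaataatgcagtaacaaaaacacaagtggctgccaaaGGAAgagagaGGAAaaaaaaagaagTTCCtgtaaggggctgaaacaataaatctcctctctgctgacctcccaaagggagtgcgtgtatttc

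The ETS core stood 10 times in the Etv2 window and 4 times in each of the Kdr, Flt1 and Emcn windows. The Tie1 window had 7 and the Tek window 2. A core of 4 letters is common. It was found in 93.4% of all 32851 RefSeq windows, with a mean of 2.91 sites, and in 10 of the 11 windows of these genes, with a mean of 4.0. The longer ETS form CCGGAAGT and the E-box CAGCTG, the site of factors such as Tal1, were in 0 of the 11 windows and in 2.88% and 13% of all windows. The GATA form AGATAA was in 2 windows, of Tal1 and Erg, and in 9.99% of all. The FOX:ETS form AACAGGAA, which overlaps an ETS core, was in the Emcn window only, 173 bases before the start, and in 2.25% of all. The retinoic acid receptor half-site AGGTCA was in the Emcn window at 153 and 29 bases before the start and in 1 Erg window, against 14% of all windows. Both strands were read for each motif. A match is no evidence of binding.

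Nearly all of the 10 genes rose within the first 6 h. From PM to D6.25, 9 were called higher in CD1530 and 9 in AGN, where 34.5% and 35% of all genes tested were called higher and 33.3% and 33.1% lower. Pecam1 was the only one called lower, in AGN. The median log2 fold change of the 10 was 3.91 in CD1530 and 3.66 in AGN, and that of all genes was close to 0. The largest steps in CD1530 were those of Cdh5 (4.71 ± 0.13, SE), Erg (4.65 ± 0.23), Tie1 (4.53 ± 0.16) and Etv2 (4.38 ± 0.18), with edgeR adjusted p-values of at most 2.59e-21. Tek rose by 0.50 ± 0.12 and 0.61 ± 0.12 in CD1530 and AGN. The log2 fold change of Pecam1 was -0.11 ± 0.05 (0.0537) in CD1530 and -0.19 ± 0.05 (0.00104) in AGN. Both conditions were compared with the same PM libraries. After this step most of the genes were highest at D6.75 or D7.5 in CD1530, times that several genes shared. Etv2 was highest at D6.25 and Erg at D10. In AGN Pecam1 was highest in PM, and Kdr at D6.25, where its libraries overlapped with those of D6.75.

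**Figure D1:**
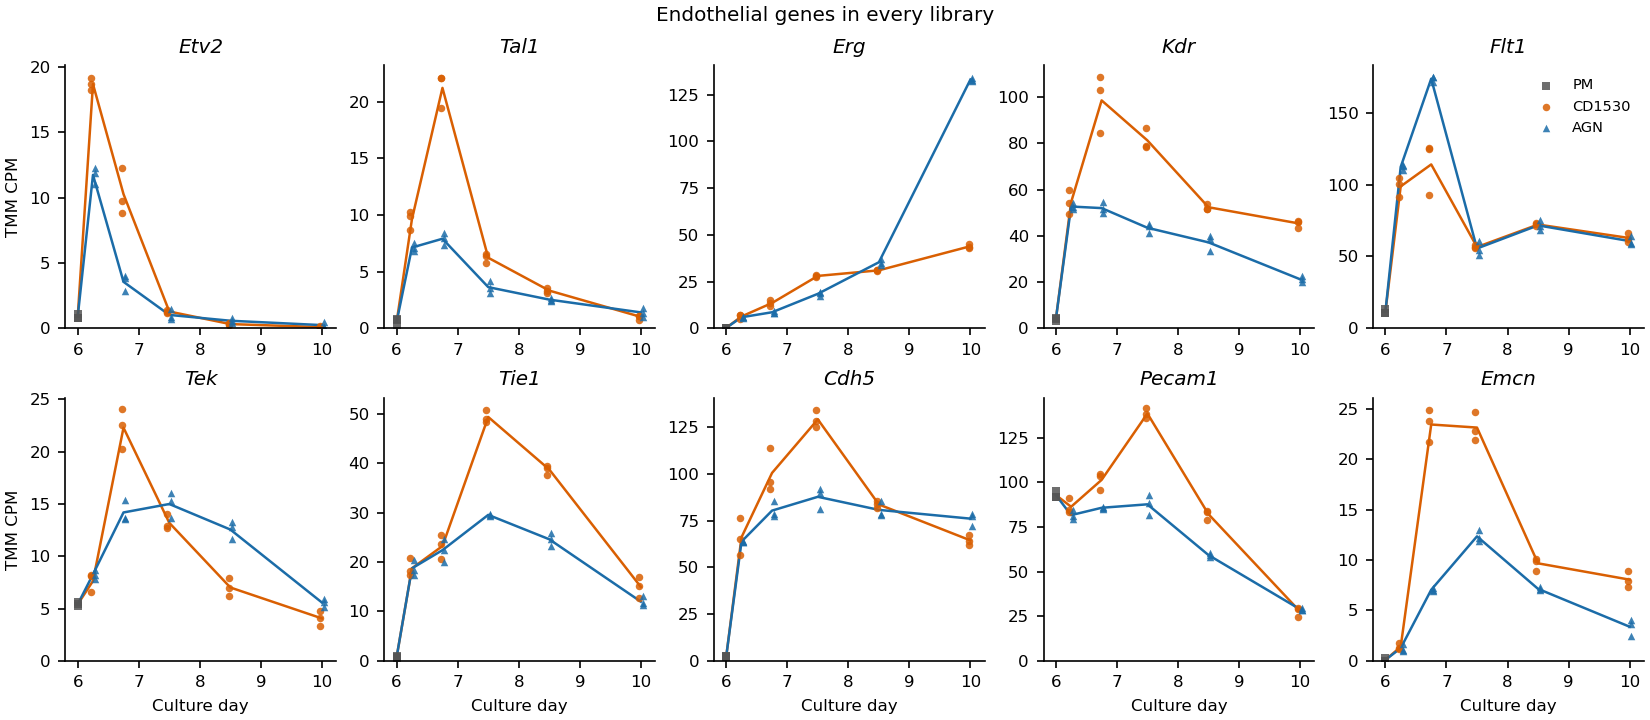
Expression of the 10 genes in every library. The horizontal axis gives the culture day and the vertical axis TMM CPM, points are single libraries and lines join the group means of CD1530 and AGN from the shared PM group. Etv2 was highest at D6.25, most other genes were highest at D6.75 or D7.5, and Erg was highest at D10.

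Etv2 (ENSMUSG00000006311, chromosome 7, 30633616 to 30635852) was the earliest in CD1530 and was highest at D6.25 in both conditions. It was at 1.05, 0.803 and 0.808 CPM in the PM libraries and at 18.2, 18.7 and 19.2 in CD1530 at D6.25, against 11.9, 12.3 and 11.1 in AGN. At D6.75 it had fallen to 12.2, 8.82 and 9.73 CPM in CD1530 and to 3.88, 2.82 and 3.97 in AGN. The CD1530 libraries lay above the AGN libraries at both times, and the groups overlapped at D7.5, D8.5 and D10. Etv2 was higher in CD1530 by 0.67 ± 0.12 at D6.25 (log2 fold change ± SE, edgeR adjusted p 0.000357) and by 1.53 ± 0.15 at D6.75 (8.63e-11). By D10 the 3 libraries together held 5 counts in CD1530 and 12 in AGN, a depth-adjusted ratio of 0.369 with an exact 95% interval of counting error from 0.102 to 1.13, so that no difference was detectable at this depth (adjusted p 0.133). The step up from PM was 4.38 ± 0.18 in CD1530 and 3.71 ± 0.19 in AGN. At D10 Etv2 was below PM in both conditions, by -3.23 ± 0.53 in CD1530 (adjusted p 6.99e-07) and by -1.85 ± 0.44 in AGN (0.000225).

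Tal1 (ENSMUSG00000028717, chromosome 4, 115056426 to 115071755), a basic helix-loop-helix factor of blood and endothelial progenitors, followed at D6.75. The study picked it as a marker gene from these same libraries, so that its course is not independent evidence. In PM it was at 0.718, 0.850 and 0.162 CPM. At D6.25 it was at 8.66, 10.3 and 9.93 CPM with CD1530 and 7.5, 6.78 and 7.07 with AGN. At D6.75 CD1530 had 19.4, 22.1 and 22.1 CPM and AGN 8.37, 7.38 and 7.93, so that every CD1530 library was above every AGN library. The difference was 1.42 ± 0.11 (edgeR adjusted p 2.67e-13) at D6.75 and 0.77 ± 0.15 (5.86e-05) at D7.5. From D6.25 to D6.75 Tal1 rose in CD1530 (1.14 ± 0.11, 1.11e-11), and in AGN the step did not pass the test (0.15 ± 0.13, 0.361). At D6.25 the difference was 0.44 ± 0.12 (0.0495), and this call was lost in 8 of 15 alternatives, with adjusted p-values of 0.0975 to 0.204 in the 5 fits that lost it by leaving out 1 library (CD1530 replicate 2 or 3, or any AGN replicate). At D8.5 and D10 Tal1 did not pass (0.40 ± 0.17, 0.067, and -0.47 ± 0.27, 0.158).

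Blood genes are given beside Tal1, which blood progenitors also express. Of 13 blood markers 12 were in the table and 0 of them were at 0 in a whole group. Their summed level was 119 to 131 CPM in the PM libraries, 314 to 360 in CD1530 and 335 to 363 in AGN at D6.75, and 104 to 110 and 85.7 to 94.9 at D10. The embryonic globins led the rise: at D6.75 Hbb-bh1 was at 114 ± 11 CPM with CD1530 and 115 ± 5.7 with AGN, Hba-x at 108 ± 12 and 107 ± 5.4, and Hbb-y at 45.8 ± 4.9 and 41.8 ± 1.0. At that time 2 of the 12 were called between the conditions, near the share of 18% among all genes. Both were lower in CD1530, among them the blood factor Runx1 (-0.66 ± 0.07). At D7.5 the conditions differed in 5, with all 5 lower in CD1530, where 26.9% of all genes were called and 11.8% were lower. The part of blood cells in the Tal1 values was not tested.

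Erg (ENSMUSG00000040732, chromosome 16, 95359169 to 95586593), an ETS factor that maintains endothelial identity, did not peak early. Its PM libraries held 3, 7 and 5 counts. After 6 h it had risen to 4.85, 7.07 and 6.99 CPM with CD1530 and to 5.44, 6.05 and 6.16 with AGN. With 15 counts in PM, the depth-adjusted ratio of D6.25 to PM was 25.7 in CD1530, with an exact 95% interval from 15.4 to 46.4. In AGN the ratio was 23.8, from 14.2 to 42.9. Erg then kept climbing. At D10 it was at 43.5, 43.1 and 45.1 CPM in CD1530 and at 132, 134 and 133 in AGN, the highest group of each condition. The CD1530 libraries were the higher ones at D6.75 (0.66 ± 0.09, edgeR adjusted p 4.37e-07) and D7.5 (0.61 ± 0.08, 1.87e-08), and the lower ones at D10 (-1.60 ± 0.06, 6.99e-24). At D8.5 the difference of -0.18 ± 0.07 (0.0319) was lost without CD1530 replicate 1, 2 or 3 or AGN replicate 2 or 3, with adjusted p-values of 0.0576 to 0.137. Between D8.5 and D10 the step was 0.50 ± 0.07 (5.54e-08) in CD1530 and 1.92 ± 0.06 (2.4e-26) in AGN. Per length of exon, Erg in AGN at D10 reached 38.4 ± 0.254 CPM per kb, the highest group mean of all 10 genes.

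Erg is also known from cartilage of joints, and cartilage genes are given beside it. A list of 6 cartilage markers was added after the data were seen. At D10 its summed level was 3980 to 4166 CPM in the AGN libraries and 749 to 763 in CD1530. All 6 were called lower in CD1530 at that time (median -3.94), where 24% of all genes were called lower. Col2a1 stood at 145 ± 4.4 CPM with CD1530 and at 2497 ± 69 with AGN. At D6.75 5 of the 6 were called, where 18% of all genes were called and 10% were lower. Their summed level was 576 to 636 CPM in CD1530 and 775 to 819 in AGN, and Erg was higher in CD1530. From PM to D10 the mean cartilage sum in CD1530 was 24.9, 234, 603, 661, 645 and 757 CPM at successive times. Mean Erg there was 0.248, 6.30, 13.5, 28.0, 31.0 and 43.9 CPM. In AGN the sum after PM was 230, 799, 898, 1404 and 4098 CPM, and Erg was 5.88, 8.56, 18.4, 35.3 and 133. The part of cartilage cells in the Erg values was not tested.

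Kdr (ENSMUSG00000062960, chromosome 5, 75932827 to 75978458), the main signalling receptor of VEGF-A and an early mark of mesoderm that forms vessels and blood, rose in all libraries at 6 h. PM libraries were at 4.02, 4.58 and 3.02 CPM. At D6.25 the conditions overlapped, with 49.5, 59.8 and 54.4 CPM with CD1530 and 51.4, 52.4 and 54.3 with AGN. At D6.75 Kdr had 84.3, 109 and 103 CPM in CD1530 and 54.5, 50.0 and 51.5 in AGN. At D10 it was at 46.4, 46.2 and 43.2 CPM in CD1530 and 19.9, 21.3 and 22.5 in AGN. From D6.75 on, every CD1530 library was above every AGN library. The log2 differences were 0.92 ± 0.08 at D6.75, 0.90 ± 0.08 at D7.5, 0.49 ± 0.08 at D8.5 and 1.09 ± 0.09 at D10, with edgeR adjusted p-values of at most 7.62e-06. At D6.25 the difference was 0.05 ± 0.08 (0.889). In AGN the means at D6.25 and D6.75, 52.7 ± 1.4 and 52.0 ± 2.3 CPM, differed by less than the replicate spread.

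Flt1 (ENSMUSG00000029648, chromosome 5, 147561604 to 147726011), the other VEGF receptor, parted from Kdr. It was at 13.5, 10.4 and 10.7 CPM in PM and, at D6.25, at 91.6, 104 and 100 with CD1530 and 110, 113 and 114 with AGN. At D6.75 it had 92.4, 124 and 125 CPM in CD1530 and 175, 171 and 175 in AGN. Here the AGN libraries were the higher ones and did not overlap with CD1530, a difference of -0.61 ± 0.08 (edgeR adjusted p 9.21e-07). Flt1 was the only one of the 10 genes called lower in CD1530 at D6.75. By D7.5 it had fallen in both conditions, to 56.5 ± 0.97 and 55.5 ± 5.1 CPM, and the conditions then differed by 0.03 ± 0.09, 0.01 ± 0.08 and 0.05 ± 0.09 at D7.5, D8.5 and D10, none of which passed the test. The counts were made per gene, so that the membrane form and the soluble form of Flt1 were not separated.

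The number of Kdr counts per Flt1 count compares both receptors within a library. It was 0.283 to 0.441 in PM, 0.541 to 0.572 in CD1530 and 0.464 to 0.476 in AGN at D6.25. At D6.75 it was 0.822 to 0.913 in CD1530 and 0.292 to 0.312 in AGN. It peaked at D7.5 in both, with 1.40 to 1.50 and 0.741 to 0.813, and ended at 0.698 to 0.768 and 0.332 to 0.384 at D10. The 3 CD1530 libraries were above the 3 AGN libraries at each of the 5 times.

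**Figure D2:**
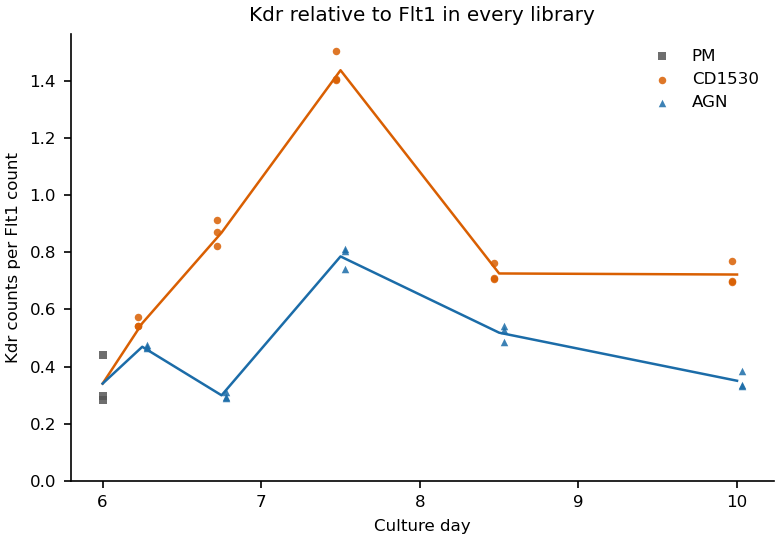
Kdr counts per Flt1 count in every library against the culture day. Points are libraries and lines join group means. The CD1530 libraries lie above the AGN libraries at every time point, with 0.822 to 0.913 against 0.292 to 0.312 at D6.75.

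Tek (ENSMUSG00000006386, chromosome 4, 94739289 to 94874976), the receptor of the angiopoietins, was already present in PM at 5.60, 5.24 and 5.39 CPM. It changed order between the conditions. At D6.75 it was at 20.2, 22.5 and 24.1 CPM in CD1530, its highest group there, and at 13.5, 15.3 and 13.7 in AGN. At D8.5 it was at 7.93, 6.92 and 6.19 CPM in CD1530 and at 12.8, 11.7 and 13.2 in AGN. The difference was 0.65 ± 0.09 (edgeR adjusted p 2e-07) at D6.75 and -0.84 ± 0.10 (1.28e-08) at D8.5. In AGN Tek was highest at D7.5, with 15.0 ± 1.2 CPM, where its libraries overlapped with those of D6.75. At D10 the difference was -0.46 ± 0.14 (0.00558), and without CD1530 replicate 2 it was -0.34 (0.0575).

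Tie1 (ENSMUSG00000033191, chromosome 4, 118471191 to 118490061), a receptor that modulates signalling through Tek, parted later. It was at 0.909, 0.661 and 0.862 CPM in PM and at 17.3 to 25.5 CPM in all libraries of D6.25 and D6.75, where the conditions overlapped. At D7.5 it was at 48.5, 50.8 and 49.0 CPM in CD1530 and 29.3, 29.8 and 29.6 in AGN, the highest group of each. Tie1 was higher in CD1530 by 0.74 ± 0.08 at D7.5 (edgeR adjusted p 1.89e-10) and by 0.65 ± 0.08 at D8.5 (6.02e-09). At D10 the difference was 0.32 ± 0.10 (0.00767) and was lost without CD1530 replicate 1 (0.22, adjusted p 0.109).

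Cdh5 (ENSMUSG00000031871, chromosome 8, 104101625 to 104144511), the cadherin of endothelial junctions, was at 2.68, 2.79 and 2.05 CPM in PM. By D6.25 it had reached 56.7, 76.3 and 65.3 CPM with CD1530 and 63.5, 63.7 and 64.0 with AGN. At D7.5 it had 128, 134 and 125 CPM in CD1530 and 92.0, 90.0 and 81.1 in AGN. The CD1530 libraries did not overlap with AGN there, a difference of 0.56 ± 0.07 (edgeR adjusted p 5.65e-07). At D6.75 the difference was 0.32 ± 0.07 (0.00216). At D10 the mean in CD1530 was 49.9% of its highest group and that in AGN 86.7%. The conditions then stood at 64.4 ± 2.6 and 76.0 ± 3.5 CPM (-0.24 ± 0.08, 0.0136), a call lost without CD1530 replicate 3 (-0.21, 0.0532) or AGN replicate 2 (-0.22, 0.0536).

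Pecam1 (ENSMUSG00000020717, chromosome 11, 106654217 to 106750628), an adhesion molecule of endothelium, was already high before induction. It was at 95.2, 92.0 and 91.6 CPM in PM, the highest group mean of the AGN course, while in CD1530 it was highest at D7.5. At D7.5 it had 141, 138 and 136 CPM in CD1530 and 88.4, 92.9 and 81.7 in AGN, and at D10 29.4, 29.1 and 24.3 against 28.5, 29.9 and 28.3. The CD1530 libraries were above AGN at D6.75 (0.24 ± 0.05, edgeR adjusted p 0.000249), D7.5 (0.66 ± 0.05, 1.68e-14) and D8.5 (0.47 ± 0.05, 3.36e-10), and the groups overlapped at D10 (-0.06 ± 0.06). From PM to D10 Pecam1 fell by 1.75 ± 0.06 on the log2 scale in CD1530 and by 1.69 ± 0.06 in AGN.

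Pecam1 is also known on mouse embryonic stem cells, and pluripotency genes are given beside it. The summed level of 6 pluripotency markers was 2066 to 2098 CPM in PM, where 0 of them were at 0, and fell to 151 to 157 in CD1530 and 283 to 301 in AGN at D10. All 6 were called lower at D10 than in PM in each condition, where 39.9% of all genes were lower in CD1530 and 40.4% in AGN. From PM to D10 the mean sum in CD1530 was 2082, 994, 974, 873, 456 and 154 CPM at successive times. Mean Pecam1 there was 92.9, 86.3, 101, 139, 82.2 and 27.6 CPM, with a rise from D6.75 to D7.5 (0.45 ± 0.05, edgeR adjusted p 4.43e-10). In AGN the sum after PM was 963, 894, 867, 526 and 292 CPM, and Pecam1 was 81.6, 85.7, 87.7, 59.3 and 28.9. Of the 4 with the highest levels, Pou5f1 was at 701 ± 8.2 CPM in PM, Esrrb at 542 ± 10, Nanog at 466 ± 7.6 and Klf4 at 147 ± 4.1. The part of undifferentiated cells in the Pecam1 values was not tested.

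Emcn (ENSMUSG00000054690, chromosome 3, 137341067 to 137432185), a sialomucin of capillaries and veins, had the largest difference of the 10 at D6.75. The PM libraries held 0, 6 and 0 counts, and at D6.25 it was at 1.73, 1.2 and 1.24 CPM with CD1530 and 1.69, 1.07 and 1.01 with AGN. At D6.75 Emcn was at 24.9, 23.8 and 21.7 CPM in CD1530 and at 7.23, 6.99 and 6.93 in AGN. The log2 difference was 1.73 ± 0.12 (edgeR adjusted p 1.82e-15), and it was 0.91 ± 0.11 (6e-09) at D7.5, 0.44 ± 0.13 (0.0053) at D8.5 and 1.24 ± 0.16 (1.59e-08) at D10. In AGN Emcn was highest at D7.5, at 13, 11.9 and 12.1 CPM. In CD1530 the means at D6.75 and D7.5, 23.5 ± 1.6 and 23.1 ± 1.4 CPM, differed by less than the replicate spread. With 6 counts in PM, the depth-adjusted ratio of D6.25 to PM was 13.9 in CD1530, with an exact 95% interval from 6.14 to 38.9, and 12.8 in AGN, from 5.63 to 35.9. The step from D6.25 to D6.75 was 4.08 ± 0.15 (2.6e-24) in CD1530 and 2.47 ± 0.19 (1.92e-14) in AGN.

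No group after D6 was free of both ligands, so that an effect of CD1530 and an effect of AGN cannot be told apart. Over the 10 genes the comparison of CD1530 with AGN, which asks how the retinoic acid receptor ligands bear on them, was as follows. At D6.25 2 were called, Etv2 and Tal1, both higher in CD1530, where 1.92% of all genes were called, 1.23% higher and 0.695% lower. Only Etv2 was called without CD1530 replicate 2 or 3 or any 1 AGN replicate. At D6.75 9 were called, 8 higher and 1 lower, where 18% of all genes were called, 7.94% higher and 10% lower. The libraries of the conditions did not overlap for 9 of the 10 genes and for 26.3% of all genes. At D7.5 7 were called, all 7 of them higher, where 26.9% of all genes were called, 15.2% higher and 11.8% lower. At D8.5 4 were higher and 2 lower, where 40% of all genes were called, 20.4% higher and 19.6% lower. At D10 3 were higher (Kdr, Emcn and Tie1) and 3 lower (Erg, Tek and Cdh5), where 46.6% of all genes were called, 22.7% higher and 24% lower, so that the share of 6 in 10 was near the background. The median log2 fold change of the 10 was 0.07, 0.66, 0.63, 0.22 and -0.15 at the successive times, where the medians of all genes were between -0.02 and 0.01. The difference between the conditions changed with time for all 10 genes by edgeR's interaction test, which 48.8% of all genes passed.

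**Figure D3:**
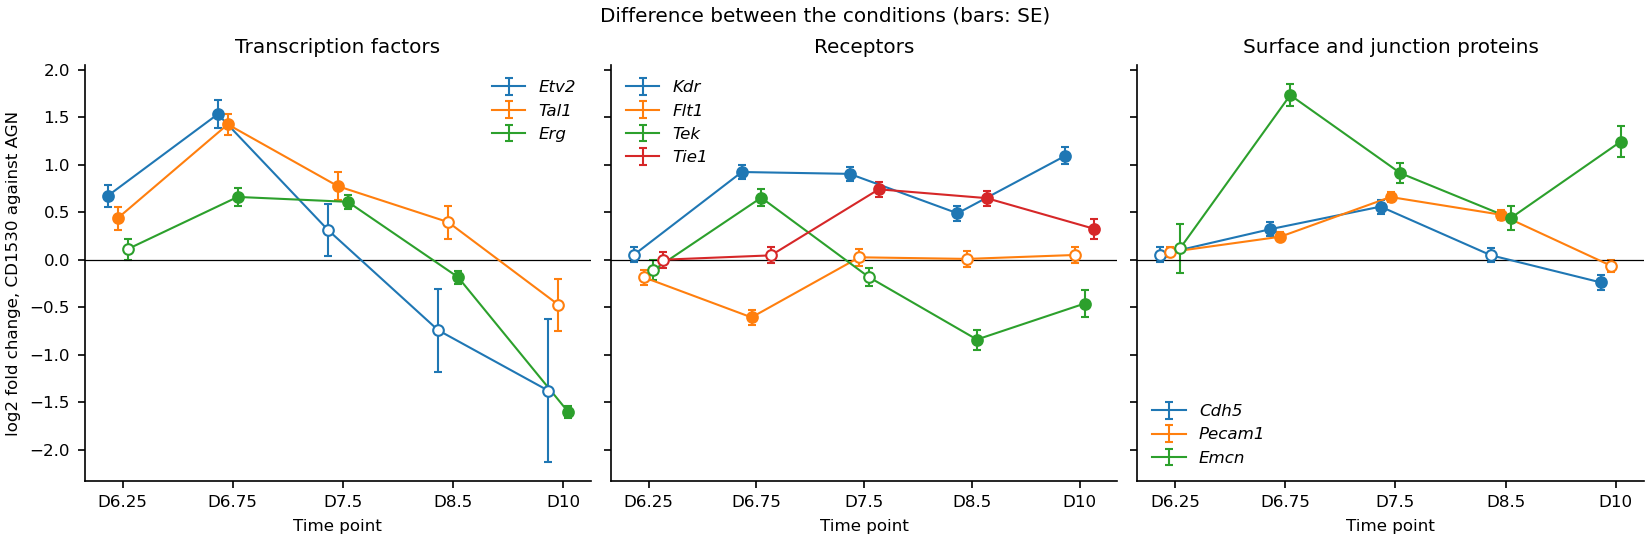
Log2 fold change of CD1530 against AGN at each time point, by role of the genes. Bars are SE, filled points passed the edgeR test at an adjusted p under 0.05 and open points did not. At D6.75 all called genes but Flt1 (-0.61) lie above 0, and at D10 Erg (-1.60) lies below and Emcn (1.24) and Kdr (1.09) above.

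In time, the genes that changed at each step turned from higher to lower. From D6.25 to D6.75 in CD1530 9 rose and 1 (Etv2) fell, where 25.8% of all genes were called higher and 20.1% lower. In AGN 6 rose and 1 (Etv2) fell, where the shares were 24.9% and 18.8%. Of these rises, in CD1530 that of Flt1 (0.21) was lost in 5 of 15 alternatives, with adjusted p-values up to 0.237. That of Tie1 was lost in 1 of 15 in CD1530 (0.31) and in 2 of 15 in AGN (0.26). From D6.75 to D7.5 in CD1530 4 rose and 5 fell, against 18.7% and 15.5% of all genes. In AGN 3 rose and 4 fell, against 14.2% and 16%. The fall of Kdr was lost in 1 of 15 alternatives in CD1530 (-0.28) and in 2 of 15 in AGN (-0.26). From D7.5 to D8.5 1 rose and 8 fell in CD1530, against 18.8% and 17.7% of all genes, and 2 rose and 7 fell in AGN, against 21.4% and 20.6%. Without AGN at D7.5 replicate 2 the calls in AGN were 5 in all. From D8.5 to D10 1 gene, Erg, rose and 8 fell in each condition, where 27.4% of all genes rose and 29.9% fell in CD1530 and 29.9% and 29.5% in AGN. Of these falls, in CD1530 that of Flt1 (-0.20) was lost in 7 of 15 alternatives, that of Kdr (-0.21) in 4 of 15 and that of Etv2 (-1.75) in 4 of 14. Among them were fits without any 1 library of D8.5 or without D10 replicate 2 or 3, with adjusted p-values up to 0.142. In AGN the fall of Etv2 (-1.12) was lost in 6 of 14 and that of Flt1 (-0.24) in 3 of 15, among them fits without any 1 library of either time, with adjusted p-values up to 0.192. At D10, compared with PM, 7 were still higher in each condition. In CD1530 3 were lower (Etv2, Pecam1 and Tek) and in AGN 2 (Etv2 and Pecam1). Of all genes in CD1530 43.3% were higher and 39.9% lower, and in AGN the shares were 41.6% and 40.4%. The Tek difference in CD1530 was -0.42 ± 0.13 (edgeR adjusted p 0.00476), and -0.30 (0.0548) without CD1530 replicate 2. The Tal1 difference in CD1530 was 0.75 ± 0.32 (0.0269) with overlapping libraries. It was 0.35 (0.285) without PM replicate 3, and the call was also lost without CD1530 replicate 1 or 3, with library size only and with the groups compared only.

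**Figure D4:**
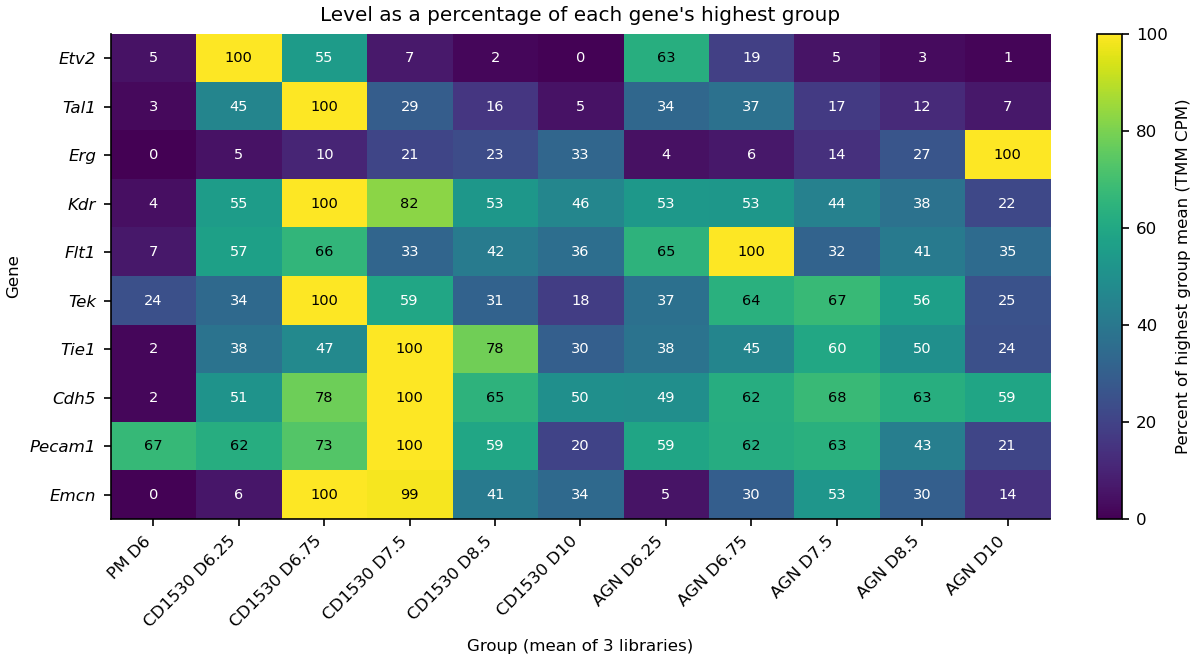
Mean level of each gene in the 11 groups as a percentage of its highest group, on a colour scale from 0 to 100. The highest group was CD1530 at D6.25 for Etv2, CD1530 at D6.75 for Tal1, Kdr, Tek and Emcn, CD1530 at D7.5 for Tie1, Cdh5 and Pecam1, AGN at D6.75 for Flt1 and AGN at D10 for Erg.

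Per length, the levels of the genes can be set side by side, with a limit. The length is that of all annotated exons of a gene, not of the form expressed, so that an order between genes depends on it. In CD1530 at D6.25 Etv2 (17.8 ± 0.461 CPM per kb of exon) and Cdh5 (15.7 ± 2.33) were the transcripts with the highest level beside Pecam1 (13.9 ± 0.681), while Tal1 (2.20 ± 0.194) and Emcn (0.257 ± 0.0549) were low. In CD1530 at D7.5 Cdh5 (30.7 ± 1.09) and Pecam1 (22.2 ± 0.446) led, and Etv2 was at 1.22 ± 0.0899. In AGN at D6.75 Flt1 (12.9 ± 0.144) was above Kdr (5.76 ± 0.257), while in CD1530 Kdr stood at 10.9 ± 1.40 and Flt1 at 8.44 ± 1.39. Before division by length the order in CD1530 at D6.75 was the reverse, with 98.6 ± 12.7 CPM for Kdr and 114 ± 18.7 for Flt1. The exon length of Flt1 covers its membrane and soluble forms.

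Other genes of the pathway were counted from lists. Of all genes, 7.94% were called higher in CD1530 and 10% lower at D6.75. At D7.5 the shares were 15.2% and 11.8%, and at D10 22.7% and 24%. These shares are the background of all list counts below. Of 9 VEGF and angiopoietin ligands, at D6.75 CD1530 had 3 higher and 2 lower, and at D10 3 higher and 4 lower. Vegfa, the ligand of Kdr and Flt1, was at 119 ± 5.7 CPM with CD1530 and 99.7 ± 8.8 with AGN at D6.75, and differed by 0.65 ± 0.05 at D7.5. Angpt1, the activating ligand of Tek, was at 44.8 ± 1.2 CPM in AGN and 17.1 ± 2.1 in CD1530 at D10 (-1.38 ± 0.10). Pgf and Vegfb, which bind Flt1, differed by 0.25 ± 0.09 and -0.11 ± 0.09 at D6.75, neither of which passed the test.

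Of 9 co-receptors and modulators 6 were called at D6.75, all 6 higher in CD1530, and at D10 4 were higher and 5 lower. Plxnd1, a semaphorin receptor of vessels, stood at D6.75 at 303 ± 50 CPM with CD1530 and 199 ± 8.8 with AGN (0.61 ± 0.09). Eng, a TGFβ co-receptor, differed by 0.40 ± 0.05 at D6.75, and Nrp1, a co-receptor of Kdr, by 1.27 ± 0.07 at D10. Nrp2 was higher in CD1530 at D6.75 (0.40 ± 0.09) and lower at D10 (-0.44 ± 0.09).

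Of 17 other endothelial and haemangioblast transcription factors 8 were higher and 2 lower at D6.75. The ETS factors Ets1 and Elk3 differed by 0.46 ± 0.05 and 0.30 ± 0.05, while Foxc1 (-0.08 ± 0.05) and Klf2 (0.05 ± 0.06) did not pass. At D10 4 were higher and 8 lower, and Ets1 was still higher in CD1530 (0.79 ± 0.05), whereas Erg was lower.

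Of 19 other endothelial surface and junction genes 14 were higher with CD1530 and 1 lower at D6.75, 15 and 2 at D7.5, and 1 and 7 at D10. Their summed level went from 75.7 to 86.5 CPM in PM to 693 to 749 in CD1530 and 499 to 534 in AGN at D6.75, and to 184 to 190 and 248 to 264 at D10. Cldn5, a tight junction protein, was at 105 ± 12 CPM with CD1530 and 36.4 ± 1.6 with AGN at D6.75 (1.53 ± 0.06). Stab1, a scavenger receptor, was at 120 ± 9.5 CPM with CD1530 and 44.4 ± 1.6 with AGN at D7.5 (1.44 ± 0.08). Plvap, a protein of endothelial diaphragms, differed by 0.39 ± 0.06 at D6.75 and by -1.05 ± 0.09 at D10. Cd34, which is also found on progenitor cells, went the other way at D6.75 (-0.14 ± 0.05). Of 11 arterial, venous and lymphatic genes 4 were higher and 1 lower at D6.75. Notch4 differed by 0.51 ± 0.06, and the venous factor Nr2f2 by 0.15 ± 0.05, while Efnb2 (0.07 ± 0.05) and Ephb4 (0.03 ± 0.04) did not pass.

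**Figure D5:**
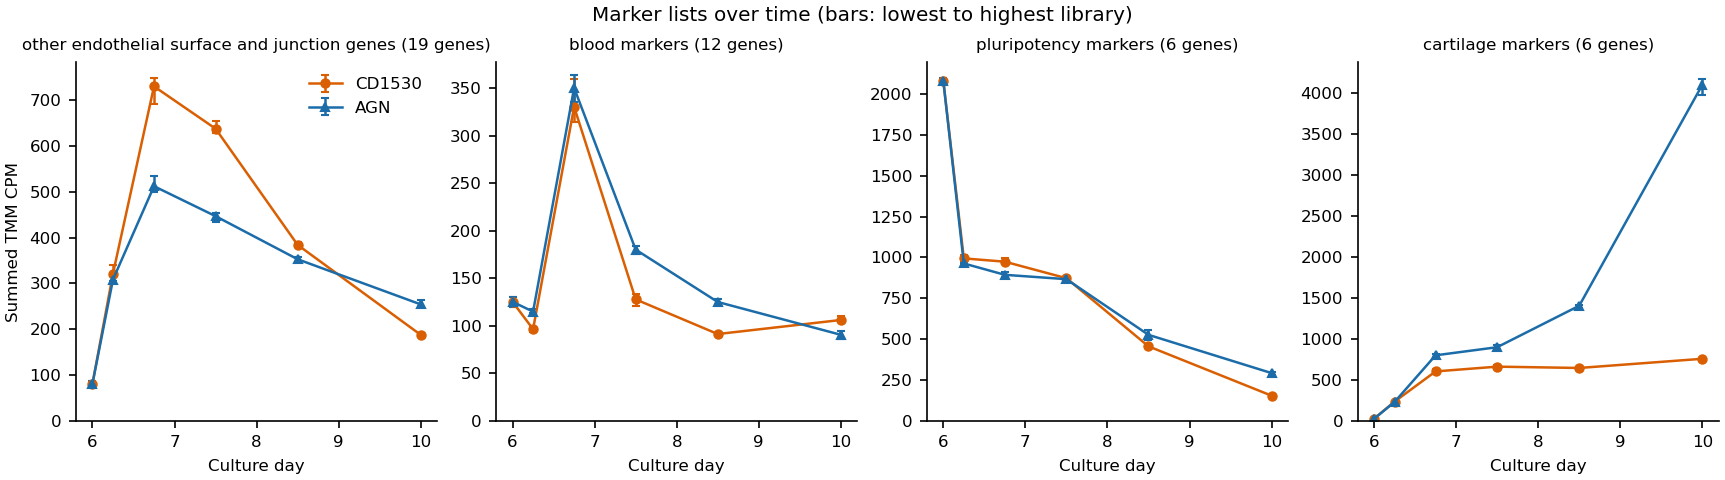
Summed TMM CPM of 4 marker lists against the culture day, as the mean of 3 libraries with bars from the lowest to the highest library. The other endothelial surface genes were highest at D6.75 (693 to 749 CPM in CD1530, 499 to 534 in AGN), blood markers at D6.75 in both conditions, pluripotency markers in PM, and cartilage markers in AGN at D10 (3980 to 4166).

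Lists of other cell types give the setting. At D8.5 20.4% of all genes were called higher in CD1530 and 19.6% lower. From PM to D10 43.3% of all genes were called higher in CD1530 and 41.6% in AGN. Of 9 mural cell markers, genes of pericytes and smooth muscle, 2 were higher with CD1530 and 5 lower at D6.75. At D10 5 were higher and 2 lower. Of the 9, 9 were above PM at D10 in each condition, among them Acta2, Pdgfrb, Notch3 and Cspg4. Which cells of the cultures expressed them was not tested. Of 9 lateral plate and cardiac mesoderm markers, the mesoderm from which most endothelium comes, 4 were called at D6.75, all 4 lower in CD1530, including Gata6 (-0.61 ± 0.06), Gata4 (-0.62 ± 0.09) and Isl1 (-1.89 ± 0.20), while Foxf1 did not pass (0.11 ± 0.32). This list turned round later, since at D8.5 CD1530 had 4 of them higher against 1 lower, and by D10 it had 6 higher and none lower. Of 8 paraxial mesoderm markers 2 were higher (Meox1 and Tcf15) and 3 lower at D6.75, Dll1 among the latter, and Tbx6 did not pass. Of 6 tendon markers, including Col1a1, Col3a1, Tnc and Scx, 3 were higher and 1 lower in CD1530 at D7.5. At D8.5 the counts were 2 higher against 3 lower, and by D10 only 1 was higher against 3 lower. All 6 were above PM at D10 in each condition.

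The genes whose course over the 11 group means was most like the mean course of the 10 were found among 7819 genes with a sufficient level and range. Pearson's r, given here as a description, was 0.989 for Cd93, 0.989 for Rasgrp3 and 0.985 for Sox18, followed by Kcne3, Plxnd1, Hsd11b2, Pcdh12, Robo4, Mmrn2 and Adgrl4 at 0.981 to 0.970. By Spearman's rho 2 of these 10 stayed among the first 10. Among the 10 themselves, Kdr lay closest to the mean of the other 9 (r = 0.94), and Etv2 (0.31), Pecam1 (0.24) and Erg (0.20) lay farthest from it. Tie1 and Cdh5 were the pair most alike (r = 0.95), Etv2 was most like Tal1 (0.81), and Erg and Pecam1 ran opposite to each other (-0.58). All these points share the same 33 libraries.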

How the data were processed

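RNA-seq was available for 33 libraries of mouse cultures in 11 groups of 3, grouped by the labels. The deposited values are raw counts. The authors had aligned the reads to GRCm38 with STAR and assigned them to genes with featureCounts. The annotation release, strand setting and handling of multimapping reads are not given in the sources used here. Low genes had been removed before deposit, since even the lowest of the 17120 genes stood at 0.611 CPM in its third-highest library. In R 4.3.3, edgeR 4.0.16 (limma 3.58.1) was fitted to all 33 libraries with a mean per group, TMM scaling and the robust quasi-likelihood F test, with no covariate. The filterByExpr function removed 0 genes. Within a contrast the Benjamini-Hochberg adjustment covered all genes, and genes were called under 0.05. The biological coefficient of variation was 4.68%. The contrasts were CD1530 against AGN at 5 time points, successive time points and D10 against D6 in each condition, and the interaction of condition with time. The script for the fit was tested on simulated data.

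The 10 genes and the gene lists were chosen with earlier results of these data known, and the cartilage list after the data were seen. All 10 genes are named. Of each other list the 4 genes with the highest group mean are named, whatever their change, except 1 that is not reported here. The listed genes Hhex, Gfi1b and Tbx5 were not analysed here. Likeness is Pearson's r over the 11 group means of log2(CPM + 1), among genes that reached a mean of 1 CPM and a range of 1 on the log2 scale. Counting intervals are given for Etv2 at D10 and for Emcn and Erg at D6.25 against PM, where a group held at most 20 counts. Such intervals and floors cover counting error only, since copies made by PCR are not independent molecules. Positions and exon lengths are from GENCODE M21 (GRCm38), in which none of the 10 genes shares exonic bases with another gene. Replicate columns correlated across genes with r from 0.9927 to 0.9977, and their chi-square per gene was 1.58 or more, above sampling noise. The alternatives were other scaling, filters and tests (DESeq2 1.42.0 among them), the groups compared only, a replicate block, thinning to the smallest library and each library left out in turn. Figures were drawn in Python 3.11.15.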

Additional observations from a re-analysis of the deposited data

Results flagged for a closer look

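The effect of CD1530 against AGN varied over the 5 time points for all 10 genes, by edgeR's interaction test with 4 degrees of freedom, adjusted over all genes, of which 48.8% passed. The adjusted p-values were 3.93e-22 for Erg, 9.84e-11 for Tek, 2.67e-10 for Pecam1, 8.51e-09 for Kdr, 1.54e-07 for Emcn, 2.44e-07 for Tie1, 4.26e-07 for Tal1, 4.58e-06 for Cdh5, 9.61e-06 for Etv2 and 6.65e-05 for Flt1. Erg and Tek turned from higher in CD1530 at D6.75 (0.66 ± 0.09 and 0.65 ± 0.09 on the log2 scale) to lower at D10 (-1.60 ± 0.06 and -0.46 ± 0.14). Flt1 differed at D6.75 (-0.61 ± 0.08) and stood within 0.05 of 0 from D7.5 on. Kdr and Emcn were higher in CD1530 at each time from D6.75 on, with their smallest differences at D8.5 (0.49 ± 0.08 and 0.44 ± 0.13).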

How the results depend on the processing

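Of 2546 fold changes recomputed for the 10 genes, 2436 kept direction and side of the threshold, 69 lost the call, 15 gained it and 26 changed sign. Sign changes concerned differences near 0: Tie1 at D6.25 (2e-04 with DESeq2 size factors, 0.007 with library size only, 0.0011 with the replicate block, 0.0326 thinned, 0.0018 with the groups compared only, 4e-04 in DESeq2), Flt1 at D8.5 (-0.0036 with DESeq2 size factors, -0.0019 in DESeq2) and Tek at D10 against D6 in AGN (-0.1041 with library size only). Some differences changed sign with 1 library left out, and their ranges over all alternatives follow. Between conditions at D6.25 the range was -0.062 to 0.15 for Cdh5 and -0.0554 to 0.4 for Emcn. It was -0.0189 to 0.1149 for Kdr and -0.0809 to 0.0649 for Tie1 at that time. For Tie1 at D6.75 it was -0.0269 to 0.1267. For Flt1 it was -0.0324 to 0.1011 at D7.5 and -0.0221 to 0.0482 at D8.5, and for Pecam1 at D10 -0.1128 to 0.0184. Between times it was -0.0702 to 0.0285 for Emcn D7.5 against D6.75 in CD1530. In AGN it was -0.0546 to 0.0109 for Kdr D6.75 against D6.25 and -0.0123 to 0.0812 for Pecam1 D7.5 against D6.75.

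At D6.25 1 gene instead of 2 was called in a fit that is not robust, with the replicate block and thinned, and 1 to 2 with 1 library left out. For D8.5 against D7.5 in AGN, leaving out 1 library gave 5 to 9. By Spearman's rho 2 of the 10 most alike genes were shared. Over all genes, with the groups compared only, 804 instead of 329 were called between conditions at D6.25 and 1236 instead of 3076 at D6.75, and 5185 and 2792 for the steps to D6.75 and D7.5 in CD1530. Leaving out 1 library gave 196 to 276 at D6.25. No pairing by replicate number was seen in expression. Of 165 same-number pairs 10 had a correlation of deviations over 0.1 (median -0.0012), and 11 of 33 libraries correlated best with their own number. A pairing by line or batch that left no such mark would not be seen in this way. The block changed 1 count of calls over 1.5 times, the 1 at D6.25. Depth limited Etv2 at D10 and Emcn and Erg in PM. The cause of these changes was not tested.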
